A study of Mus musculus with 32 samples.

Results

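Type I interferon-stimulated genes are genes whose transcription rises when cells sense interferon alpha or beta. The set described here was a fixed list of 53 such mouse genes, taken from both raw count tables by gene symbol, with the PYHIN, GBP and schlafen families left out. All 53 were found among the 43345 mouse genes of each table. In spleen B cells 50 of them had enough counts to be tested (Ifi44, Ifit3b and Phf11d did not), and in CH12F3 cells 41 did. Counts below are over tested members and not over the whole list. A member that passed the low count filter only through 1 high group had to differ between groups, and the counts do not correct for this.

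The libraries come from a study of ELOF1, an elongation factor of RNA polymerase II, in B cells that are switching their antibody class. The spleen groups were primary B cells cultured with IL4 and LPS, and comprised Elof1-cKO cells (conditional knockout, called cKO) and wild-type cells (WT). Day 2.5 had 5 cKO and 5 WT libraries, and day 3.5 had 3 cKO and 3 WT libraries. The CH12F3 groups were a mouse B lymphoma line in which Elof1 had been knocked out, so that every group carries the knockout, and which then carried either an empty vector (called vector) or an ELOF1 construct (called ELOF1). These cells were cultured with an antibody to CD40, IL4 and TGF-beta. Vector and ELOF1 cells had 4 libraries apiece after 1.5 days, and 2 libraries apiece after 3 days and after 7 days. LPS is a bacterial ligand of the receptor TLR4, and neither culture was given interferon according to the labels. The sources used here do not state the Cre line, the number of knockout clones or the number of mice behind the spleen libraries. If the libraries share mice or cultures, the p-values measure only a technical spread.

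Interferons alpha and beta bind the receptor pair IFNAR1 and IFNAR2, whose kinases JAK1 and TYK2 phosphorylate STAT2. STAT2 and IRF9 are subunits of the factor ISGF3, which binds interferon-stimulated response elements in the promoters of the genes described here. Their products sense viral RNA (IFIH1, DDX58, DHX58), degrade it or block translation (the OAS enzymes, EIF2AK2, the IFIT proteins), restrict viruses directly (BST2 at membranes, the GTPases MX1 and MX2), conjugate the ubiquitin-like protein ISG15, or limit the response (USP18). Many of them are also expressed at a basal level in immune cells that were given no interferon.

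The promoters show what many members share. RefSeq promoters (GRCm38.p6, from 250 bases before to 50 bases after the start) were matched by symbol for 40 of the 53 genes. The core letters of the response element, GAAA then any 2 bases then GAAA, searched on both strands, occurred in 19 of these 40 genes (47.5%), against 3.99% of 27025 genes in the table. The letters of a gamma-activated site, TTCNNNGAA, occurred in 8 of 40 (20%), against 9.55% of all genes. In Bst2, Ifitm3 and Shisa5 its match overlaps a match of the response element core. A match describes letters and is not evidence of binding. The following 60-base stretches come from 6 members that fell over both days in cKO spleen cells. They are those of smallest p with a match wholly before the start. Fallen members without such a match, such as Irf9 and Ifih1, were passed over. Ifi27l2a, Usp18 and Ifi27, which also fell, were not among the 40 matched genes and so were not searched. The stretches are written 5′ to 3′ on the strand of the gene (the minus strand for all 6). Capitals mark this core or its reverse complement (TTTC, any 2 bases, TTTC), with overlapping matches run together.
Lgals9, chr11:78984945-78985004: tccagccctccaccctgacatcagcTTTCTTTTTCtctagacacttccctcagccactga
Trim30d, chr7:104507856-104507915: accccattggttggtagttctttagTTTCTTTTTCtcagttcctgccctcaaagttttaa
Trim30a, chr7:104465195-104465254: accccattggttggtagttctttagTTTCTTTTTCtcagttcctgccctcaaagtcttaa
Isg15, chr4:156200850-156200909: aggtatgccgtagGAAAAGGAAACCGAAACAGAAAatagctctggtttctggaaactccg
Oas3, chr5:120777700-120777759: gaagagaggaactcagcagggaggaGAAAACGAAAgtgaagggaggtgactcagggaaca
Bst2, chr8:71537562-71537621: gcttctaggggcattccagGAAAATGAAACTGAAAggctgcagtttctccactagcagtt
Trim30d and Trim30a carry nearly the same letters here. Isg15 holds 3 overlapping matches and Bst2 holds 2.

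Spleen libraries held 9807560 to 16359477 mouse counts and CH12F3 libraries 7112130 to 15550229. Elof1 itself was at 1.27 to 5.80 CPM in cKO and 10.99 to 55.1 CPM in WT at spleen day 2.5, at 4.64 to 7.65 CPM in cKO and 20.6 to 40.6 CPM in WT at day 3.5, and at 0.966 to 5.50 CPM in vector and 139.6 to 681 CPM in ELOF1 cells of CH12F3 (CPM, mouse counts scaled to a common library size after TMM normalization). Library names fall into an earlier and a later run of numbers (the first and second library series), and the first series, with 4 libraries of each system, held more mitochondrial ribosomal RNA. In spleen the first series is replicates 4 and 5 of both day 2.5 groups. The summed level of 8 B cell markers was 3047 to 4916 CPM over all spleen libraries and 1040 to 1656 CPM over all CH12F3 libraries. In spleen, 12 macrophage and monocyte markers together held 103 to 426 counts per library, while C1qa, C1qb and C1qc among them had 0 to 2 counts in each.

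In spleen B cells without ELOF1, 25 of the 50 tested interferon-stimulated genes fell over both days and 0 rose at an adjusted p below 0.05, against 10.9% of all 13367 tested genes called in either direction (5.56% higher and 5.34% lower). At day 2.5, 10 of 50 tested members fell and 0 rose, against 5.18% of all genes (2.82% higher and 2.36% lower). At day 3.5, 12 fell and 0 rose, against 2.07% of all genes (1.14% higher and 0.928% lower). The median log2 fold change of the members, cKO over WT, was -0.31 at day 2.5, -0.67 at day 3.5 and -0.50 over both days, while that of all tested genes was 0.00, -0.00 and 0.00. At day 3.5 the 3 cKO libraries lay below the 3 WT libraries for 34 of 50 members and above them for 0, against 12.5% of all genes below and 12.6% above. At day 2.5 the groups were apart for 3 members (Ifih1, Usp18 and Trim30d), all below, against 1.62% of all genes. These are bulk cultures, in which fewer cells of a type and less RNA per cell cannot be told apart.

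**Figure D1:**
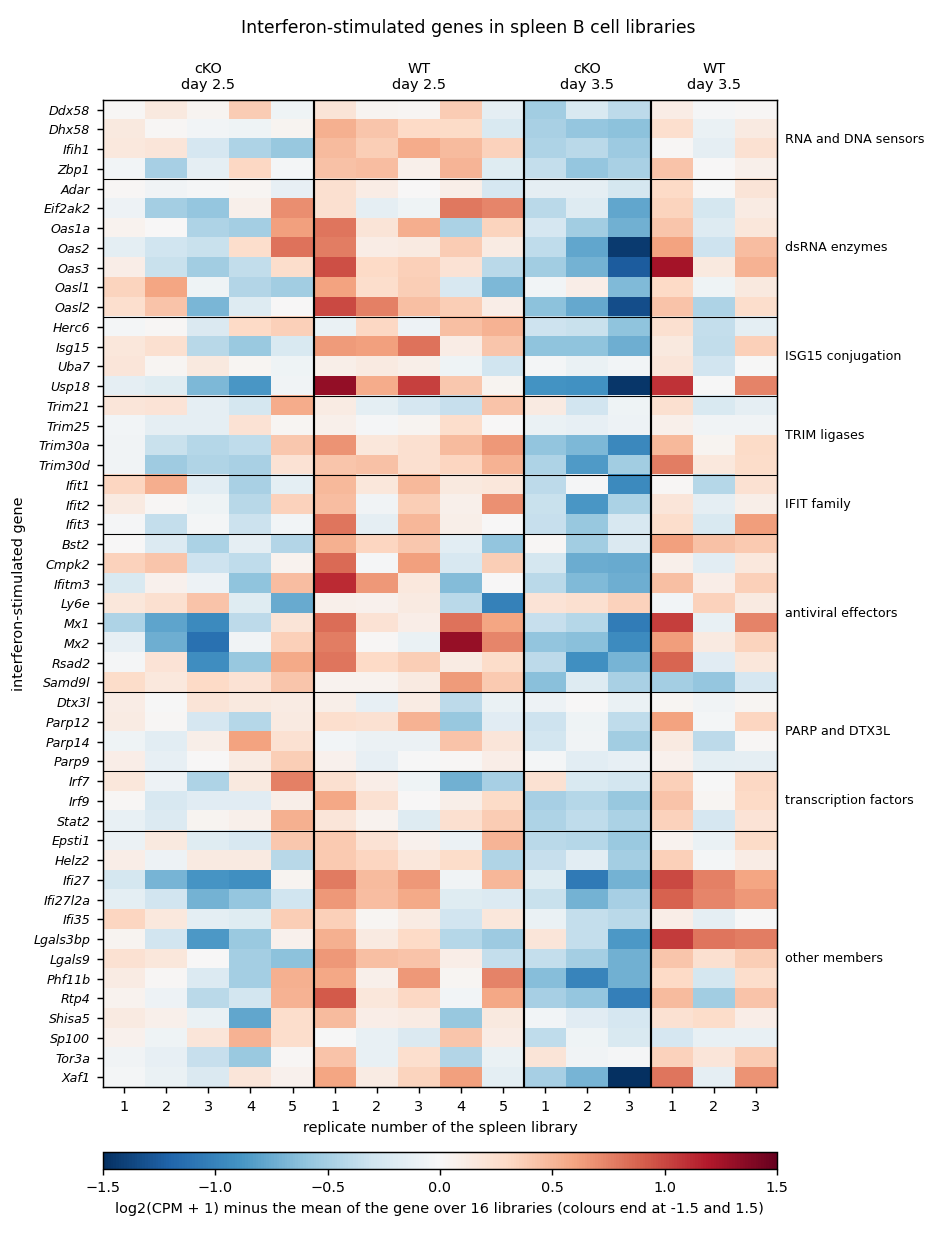
Levels of the 50 tested interferon-stimulated genes (rows, by role) in the 16 spleen libraries (columns, replicate numbers, cKO left of WT at each day), as log2(CPM + 1) minus the mean of the gene, with colours ending at 1.5 in each direction. The cKO day 3.5 columns are blue for most rows, and at day 3.5 the groups do not overlap for 34 members.

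The members called at both days were Ifi27l2a, Ifi27, Lgals9, Usp18, Mx1, Trim30a and Trim30d. Ifih1, Isg15 and Mx2 were called at day 2.5 alone, and Dhx58, Irf9, Lgals3bp, Oas3 and Xaf1 at day 3.5 alone. A further 10 members were called only with both days together, namely Bst2, Eif2ak2, Epsti1, Ifit3, Oas2, Oasl2, Phf11b, Rtp4, Stat2 and Zbp1. Of these, Ifit3 passed the low count filter only through WT libraries, so its direction was fixed by the filter. A call at 1 day and not at the other does not show a difference between days, which is tested further on.

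Among the sensors of foreign nucleic acid, Ifih1, which encodes MDA5, a receptor of long double-stranded RNA, had the smallest p at day 2.5. It was at 68.6, 69.7, 51.2, 44.2 and 40.8 CPM in cKO libraries, against 85.3, 79.0, 90.1, 85.5 and 78.2 CPM in WT libraries. Every cKO library lay below every WT library, and the log2 fold change was -0.63 ± 0.11 (SE, adjusted p = 0.0047). At day 3.5 Ifih1 was at 43.9, 46.0 and 41.7 CPM in cKO, against 62.0, 55.6 and 72.0 CPM in WT, again without overlap, but the change missed the threshold (-0.53 ± 0.15, adjusted p = 0.085). Dhx58, which encodes LGP2, a regulator of the other RNA sensors, was at 31.4, 29.2 and 28.6 CPM in cKO and 52.7, 41.1 and 48.6 CPM in WT at day 3.5 (-0.67 ± 0.14, adjusted p = 0.018). At day 2.5 its groups overlapped, with 42.4 to 48.9 CPM in cKO and 37.7 to 64.6 CPM in WT. An antisense gene, Dhx58os, overlaps Dhx58, and whether strand was used in counting is not given in the sources used here. Zbp1, a sensor of Z-form nucleic acid, fell over both days (-0.52 ± 0.13, adjusted p = 0.014). Ddx58, which encodes RIG-I, was not called, at -0.42 ± 0.14 at day 3.5 (adjusted p = 0.15).

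Of the ISG15 system, Isg15, the ubiquitin-like protein itself, was at 34.7, 36.5, 22.8, 20.6 and 26.2 CPM in cKO and 48.5, 47.9, 54.9, 33.3 and 41.6 CPM in WT at day 2.5. The highest cKO libraries lay among the WT values, and the change was -0.68 ± 0.15 (adjusted p = 0.012). At day 3.5 the levels were 19.95, 19.9 and 18.1 CPM in cKO, against 34.3, 23.7 and 39.9 CPM in WT (-0.75 ± 0.19, adjusted p = 0.056). Usp18 encodes the protease that removes ISG15 and restrains the interferon receptor. It was at 6.08, 5.85, 3.87, 3.25 and 6.53 CPM in cKO, against 18.4, 10.5, 14.8, 9.32 and 7.02 CPM in WT at day 2.5 (-1.17 ± 0.27, adjusted p = 0.020). At day 3.5 it was at 3.18, 3.146 and 1.83 CPM in cKO, against 15.5, 6.76 and 12.04 CPM in WT (-2.06 ± 0.37, adjusted p = 0.0088). Neither day showed overlap. Over both days Usp18 was 3.07-fold lower in cKO (-1.62 ± 0.23, adjusted p = 3.3e-04). Uba7, the activating enzyme of ISG15 (0.02 over both days), and Herc6, its ligase in mouse (-0.25 ± 0.10, adjusted p = 0.13), were not called.

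Among the enzymes that act on double-stranded RNA, 4 of 7 fell over both days, against 5.34% of all genes, and the median of the 7 was -0.50. Oas3, a synthase of the second messenger that activates RNase L, was at 20.6, 17.9 and 12.1 CPM in cKO and 72.7, 33.4 and 43.7 CPM in WT at day 3.5 (-1.56 ± 0.33, adjusted p = 0.021). Its 3 cKO values at day 3.5 lay below all WT values, with WT replicate 1 far above the other WT libraries. At day 2.5 the Oas3 groups overlapped, with 20.6 to 36.3 CPM in cKO and 22.55 to 59.5 CPM in WT. The day 2.5 log2 fold change of Oas3 was 0.03 in the first library series alone and -0.84 in the second. Oas2 (-0.84 ± 0.25, adjusted p = 0.042), Oasl2, an OAS-like protein of mouse (-0.88 ± 0.21, adjusted p = 0.012), and Eif2ak2, the kinase PKR that halts translation (-0.46 ± 0.12, adjusted p = 0.026), fell over both days together. Oas1a (-0.50 ± 0.20), Adar, an RNA-editing enzyme (-0.21 ± 0.07), and Oasl1 (-0.19 ± 0.12) did not pass the test.

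Of the 4 TRIM ubiquitin ligases, the neighbouring copies Trim30a and Trim30d fell and Trim21 and Trim25 did not pass. Trim30d was at 29.7, 21.1, 22.3, 21.8 and 36.0 CPM in cKO, against 41.8, 42.2, 36.6, 38.8 and 44.9 CPM in WT at day 2.5 (-0.65 ± 0.15, adjusted p = 0.022). At day 3.5 it was at 22.2, 16.8 and 21.2 CPM in cKO, against 53.2, 34.7 and 37.8 CPM in WT (-1.06 ± 0.20, adjusted p = 0.011). Neither day showed overlap. Trim30a, whose mouse product restrains Toll-like receptor signalling, was at 93.0, 76.7, 72.0, 73.9 and 129 CPM in cKO, against 155, 109, 115, 135 and 153 CPM in WT at day 2.5 (-0.59 ± 0.15, adjusted p = 0.030). At day 3.5 it was at 64.0, 60.2 and 49.3 CPM in cKO, against 136, 99.4 and 119 CPM in WT (-1.03 ± 0.19, adjusted p = 0.011). Replicate 5 of cKO day 2.5 was the highest cKO library for both genes and lay among the WT values for Trim30a. These genes are near-identical copies, so how the counting split their reads is uncertain and they may not be separate observations. Trim21 (0.06 ± 0.15) and Trim25 (-0.09 ± 0.06) were close to 0 over both days.

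Of the transcription factors, Irf9, the DNA-binding subunit of ISGF3, was at 37.8, 39.8 and 35.7 CPM in cKO and 72.6, 54.9 and 66.1 CPM in WT at day 3.5. The groups did not overlap (-0.77 ± 0.15, adjusted p = 0.011). At day 2.5 they did, with 54.3, 45.4, 47.5, 47.5 and 57.3 CPM in cKO and 80.7, 63.2, 54.1, 57.3 and 65.8 CPM in WT (-0.35 ± 0.11, adjusted p = 0.092). Irf9 overlaps Rnf31 in the annotation, so its count is uncertain. Stat2, its partner in ISGF3, fell over both days by 0.31 on the log2 scale (SE 0.10, adjusted p = 0.045). Irf7, the factor that amplifies interferon production, was at 0.01 ± 0.18 over both days, a mean of opposite shifts. At day 2.5 it averaged 40.1 CPM in cKO and 32.25 CPM in WT, and at day 3.5 34.0 and 42.1 CPM, with overlap at both days. Its day 2.5 log2 fold change was 1.11 ± 0.30 in the first library series alone and -0.22 ± 0.16 in the second, neither of them called. Irf7 overlaps Phrf1 on the other strand, so its count is uncertain as well.

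Of 8 direct antiviral effectors, 3 fell over both days, against 5.34% of all genes. Mx1, a nuclear GTPase in mouse that blocks influenza virus, was at 4.68, 3.53, 3.04, 4.97 and 7.92 CPM in cKO and 13.0, 8.06, 7.37, 12.8 and 10.8 CPM in WT at day 2.5 (-1.14 ± 0.26, adjusted p = 0.019). At day 3.5 it was at 5.16, 4.80 and 2.80 CPM in cKO, against 15.1, 6.22 and 12.1 CPM in WT (-1.38 ± 0.34, adjusted p = 0.046). Only the highest cKO library at day 2.5 reached into the WT range. Mx2, the cytoplasmic paralogue in mouse, was at 5.52, 3.29, 2.28, 5.83 and 8.11 CPM in cKO and 11.1, 6.18, 5.62, 16.6 and 10.8 CPM in WT at day 2.5, with overlap (-1.02 ± 0.25, adjusted p = 0.024). Bst2, or tetherin, which holds budding virus at the cell surface, fell over both days (-0.55 ± 0.13, adjusted p = 0.0099). At day 3.5 it was at 34.0, 23.0 and 28.6 CPM in cKO and 52.1, 45.9 and 44.4 CPM in WT. At day 2.5 its groups overlapped, with 23.9 to 33.8 CPM in cKO and 21.9 to 49.1 CPM in WT. Its day 2.5 log2 fold change was 0.07 in the first library series alone and -0.67 in the second. Rsad2, or viperin (-1.36 ± 0.43, adjusted p = 0.052), Ifitm3, which blocks virus entry (-0.86 ± 0.29, adjusted p = 0.068), and Cmpk2, a nucleotide kinase of mitochondria (-0.50 ± 0.17, adjusted p = 0.079), missed the threshold. Ly6e (0.16 ± 0.10) and Samd9l (0.02 ± 0.09) were the 2 members with a fold change above 0 at both days.

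Of the IFIT family, whose members bind viral RNA, Ifit3 fell over both days (-1.77 ± 0.51, adjusted p = 0.034) on few counts, 5 in all in cKO and 29 in WT at day 3.5. Ifit3b, its near-identical copy, was not tested. Ifit2 (-0.53 ± 0.16, adjusted p = 0.051) and Ifit1 (-0.34 ± 0.17, adjusted p = 0.23) were not called. The PARP9 and DTX3L group, which modifies proteins by ADP-ribose and ubiquitin, had 0 of 4 members called and a median of -0.02. Parp9 was at 0.03 ± 0.06, Dtx3l at 0.07 ± 0.07, Parp14 at -0.07 ± 0.09 and Parp12 at -0.46 ± 0.20 over both days. Parp9 and Dtx3l overlap each other in the annotation.

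Of the remaining members, of mixed function, 8 of 13 tested fell over both days, against 5.34% of all genes. Ifi27l2a, of the ISG12 family of small interferon-induced proteins, was at 56.9, 51.8, 38.3, 42.2 and 51.2 CPM in cKO and 99.8, 87.4, 94.5, 55.7 and 54.9 CPM in WT at day 2.5 (-0.66 ± 0.14, adjusted p = 0.0099). At day 3.5 it was at 50.2, 38.2 and 44.4 CPM in cKO, against 118, 106 and 100.3 CPM in WT (-1.29 ± 0.18, adjusted p = 0.0014). The day 3.5 groups were far apart, while at day 2.5 the lowest WT libraries were replicates 4 and 5, those of the first series. Ifi27, of the same family, was at 31.2, 22.8, 19.96, 19.5 and 38.8 CPM in cKO and 65.6, 52.7, 59.9, 36.3 and 53.8 CPM in WT at day 2.5 (-1.01 ± 0.21, adjusted p = 0.012). At day 3.5 it was at 33.0, 17.6 and 22.6 CPM in cKO, against 76.2, 64.7 and 57.2 CPM in WT (-1.44 ± 0.28, adjusted p = 0.013). Its groups overlapped at day 2.5, through cKO replicate 5 and WT replicate 4, and not at day 3.5. Lgals9, or galectin 9, a lectin that binds surface glycoproteins of lymphocytes, was at 94.5, 90.2, 80.8, 56.2 and 52.3 CPM in cKO and 127, 110.3, 109, 86.3 and 62.5 CPM in WT at day 2.5 (-0.41 ± 0.10, adjusted p = 0.020). Its day 2.5 groups overlapped. At day 3.5 Lgals9 was at 62.6, 56.3 and 48.6 CPM in cKO, against 107, 94.8 and 104 CPM in WT, without overlap (-0.87 ± 0.12, adjusted p = 0.0017). Xaf1, a binding partner of the apoptosis inhibitor XIAP (-1.53 ± 0.32, adjusted p = 0.020), and Lgals3bp, a secreted glycoprotein (-1.18 ± 0.29, adjusted p = 0.045), fell at day 3.5. Epsti1, Phf11b and Rtp4 fell over both days by 0.40, 0.74 and 0.83 on the log2 scale. Shisa5 (-0.24 ± 0.14), Helz2 (-0.33 ± 0.11), Tor3a (-0.24 ± 0.11), Ifi35 (-0.12 ± 0.11) and Sp100 (0.05 ± 0.07) did not pass.

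**Figure D2:**
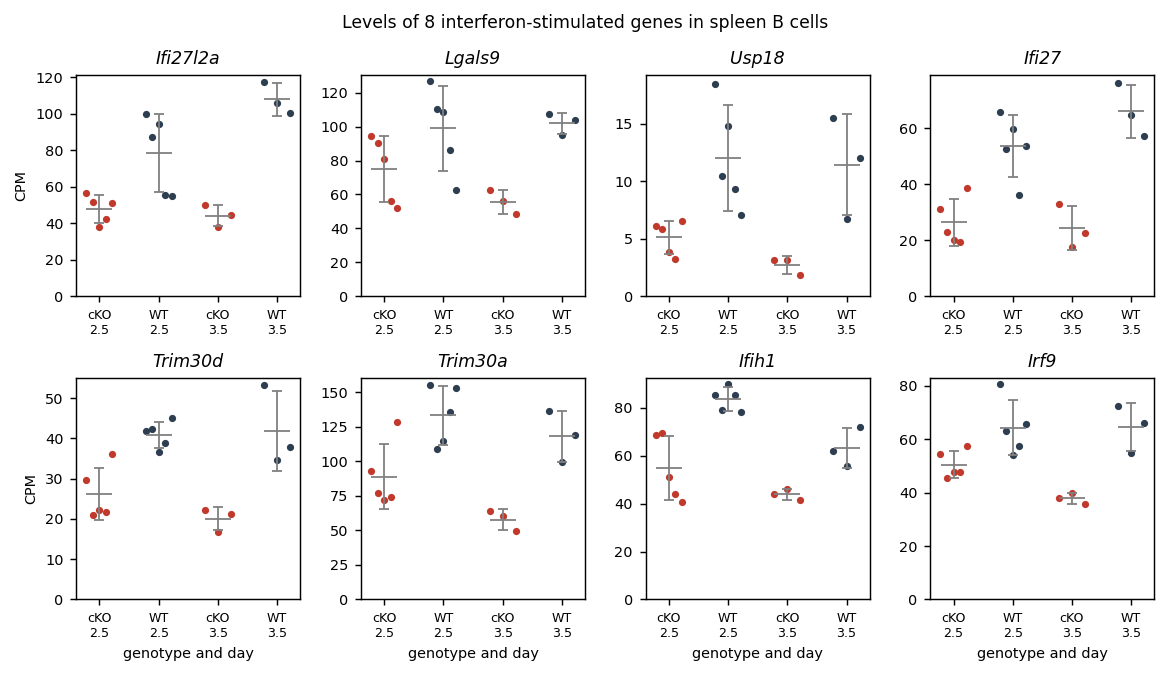
CPM of 8 interferon-stimulated genes in each spleen library (points; cKO left of WT at each day), with the group mean ± SD in grey. At day 3.5 the cKO points lie below the WT points in all 8 panels, for example at 38.2 to 50.2 CPM in cKO and 100.3 to 118 CPM in WT for Ifi27l2a.

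These counts moved with single libraries and settings. Members move together within a library, since WT replicate 1 was the highest WT library at day 3.5 for 38 of 50 members and cKO replicate 3 the lowest cKO library for 32. The count at day 2.5 was 5 without cKO replicate 2, and 4 without cKO replicate 3 or WT replicate 1. The count at day 3.5 was 2 without cKO replicate 3 or WT replicate 1, 5 without cKO replicate 2 and 6 without WT replicate 3, against 21 with DESeq2. The count over both days was 16 without WT day 3.5 replicate 1. At day 2.5 the first series alone (2 libraries of each genotype) called 0 members and had a median of -0.08, and the second series alone (3 of each) called 14, all lower, with a median of -0.40. In the first series 31 of 50 members lay below 0, and in the second 42 of 50. The 10 members called at day 2.5, which were chosen from both series together, were below 0 in each. Scaling by the fly RNA moved the median of all genes to -0.14 at day 2.5, -0.29 at day 3.5 and -0.22 over both days, and that of the members to -0.46, -0.99 and -0.73. With this scaling 1 member was called at day 2.5, 9 at day 3.5 and 26 over both days, all lower, and without the series term 4 were called at day 2.5.

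The genotype difference was not shown to change with time. For 49 of 50 members the log2 fold change was lower at day 3.5 than at day 2.5, with a median difference of -0.36, against -0.00 for all genes, but the groups behind each value are shared by all members. In edgeR's test of the difference 0 members passed, as did 0% of all genes. At an unadjusted p below 0.05, 10 members were lower and 0 higher, against 2.08% of all genes in either direction. With DESeq2 the count was 0 as well.

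Over both genotypes, 8 members were lower at day 3.5 than at day 2.5 and 0 were higher, against 11.1% of all genes in either direction (3.22% lower). Samd9l, an antiviral factor, was at 40.5, 55.5 and 45.1 CPM in cKO and 44.0, 42.0 and 53.1 CPM in WT at day 3.5, while at day 2.5 it was at 71.0 to 84.9 CPM in cKO and 65.7 to 99.2 CPM in WT. The days did not overlap (-0.61 ± 0.10, adjusted p = 6.8e-04). Isg15 (-0.66 ± 0.13), Dhx58 (-0.47 ± 0.10), Lgals9 (-0.42 ± 0.09), Ifih1 (-0.48 ± 0.10), Oasl2 (-0.91 ± 0.23), Cmpk2 and Ifit1 were the other members lower at the later day. The count was 5 without cKO day 2.5 replicate 2, cKO day 3.5 replicate 3 or WT day 2.5 replicate 1.

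The genes that encode the signal and its receptor were measured beside the members. Of the 18 type I interferon genes, the ligands, 0 had enough counts to be tested, and their summed counts per library were 0 to 1 in cKO and 0 to 3 in WT at day 2.5, and 0 to 4 in cKO and 0 to 2 in WT at day 3.5. Of 9 receptor and kinase genes, 3 rose and 0 fell in cKO over both days, against 5.56% of all genes higher and 5.34% lower. Ifnar1, a chain of the receptor, was at 101, 93.8, 103, 78.7 and 99.8 CPM in cKO and 81.3, 83.3, 79.5, 81.9 and 72.9 CPM in WT at day 2.5 (over both days 0.25 ± 0.06, adjusted p = 0.012), so its direction was opposite to that of the members. Jak2, a kinase of other cytokine receptors (0.56 ± 0.07, adjusted p = 6.8e-05), and Il10rb, a chain of the interferon lambda and IL10 receptors (0.48 ± 0.10, adjusted p = 0.0054), also rose. Ifnar2 (0.12 ± 0.07), Jak1 (-0.09 ± 0.05) and Tyk2 (-0.05 ± 0.08) were not called.

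Of 6 STAT and IRF factors outside the list, 1 rose over both days, Irf5, which acts below Toll-like receptors (0.32 ± 0.05, adjusted p = 0.0013). Of 16 tested genes that induce interferon, 2 rose, the endosomal DNA receptor Tlr9 (0.50 ± 0.13) and its trafficking factor Unc93b1 (0.40 ± 0.07), and 1 fell, the RNA receptor Tlr7 (-0.33 ± 0.08, adjusted p = 0.015). Of 16 inhibitors, 1 rose, the nucleotide hydrolase Samhd1 (0.40 ± 0.05), and 2 fell, the phosphatase Ptpn2 (-0.23 ± 0.07) and Rnaseh2b, a subunit of RNase H2 (-0.27 ± 0.08). Of all genes 10.9% were called over both days in either direction.

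The sum of dendritic cell markers overlapped between genotypes at day 2.5 and lay below WT in cKO at day 3.5. The sums of macrophage and of T cell markers also overlapped at day 2.5 and lay above WT in cKO at day 3.5. The summed level of 9 dendritic cell markers was 12.9 to 24.7 CPM in cKO and 22.9 to 68.2 CPM in WT at day 2.5, and 22.6 to 27.1 CPM in cKO and 42.2 to 53.0 CPM in WT at day 3.5. All 3 tested dendritic markers fell over both days, Flt3 (-1.28 ± 0.25), Zbtb46 (-0.85 ± 0.12) and Cox6a2 (-1.45 ± 0.41), while Clec9a was at 0 counts in every spleen library and Xcr1, Siglech and Cd209a were at 0 to 3 counts. The 12 macrophage and monocyte markers summed to 17.2 to 27.9 CPM in cKO and 9.998 to 28.1 CPM in WT at day 2.5, and 23.0 to 31.8 CPM in cKO and 14.9 to 20.7 CPM in WT at day 3.5. The 9 T cell markers summed to 152 to 309 CPM in cKO and 132 to 283 CPM in WT at day 2.5, and 326 to 416 CPM in cKO and 256 to 279 CPM in WT at day 3.5. In CH12F3, a B cell line, the same lists summed to 40.2 to 81.6 CPM (dendritic), 69.1 to 251 CPM (macrophage) and 52.8 to 139 CPM (T cell). The genes behind a sum may differ between the systems, and no cells were named from these sums. B cell and plasma cell sums overlapped between genotypes at both spleen days. Median B cell sums were 4553 CPM in cKO and 4014 CPM in WT at day 2.5, and 4299 and 3765 CPM at day 3.5. Median plasma cell sums, in the same order, were 747 and 785 CPM, and 1036 and 1138 CPM. Whether dendritic cells, macrophages, monocytes or T cells were present in the spleen cultures was not tested. Their part in the levels of the interferon-stimulated genes was not tested either.

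In CH12F3 cells no member was called between vector and ELOF1 cells in the fit without a replicate block. At day 1.5, 0 of 41 tested members passed in edgeR, against 1.15% of 14201 tested genes (0.606% higher and 0.549% lower), and at an unadjusted p below 0.05 2 were higher and 4 lower in vector cells (13.4% of all genes in either direction). DESeq2 called 1 member there. At day 3, 0 passed (0.00704% of all genes; unadjusted 0 higher and 2 lower, against 4.15% of all genes; DESeq2 0), and at day 7, 0 passed (0.0352% of all genes; unadjusted 1 higher and 0 lower, against 5.7% of all genes; DESeq2 0). Over all days 0 passed, against 2.8% of all genes, with 3 higher and 5 lower at an unadjusted p below 0.05 (17.2% of all genes), and DESeq2 called 2. Without ELOF1 day 1.5 replicate 4 the day 1.5 count was 1, and without vector day 1.5 replicate 1 the count over all days was 2. The median log2 fold change of the members, vector over ELOF1, was 0.01 at day 1.5, -0.05 at day 3, 0.05 at day 7 and -0.02 over all days, against 0.01, -0.00, 0.01 and 0.01 for all genes.

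**Figure D3:**
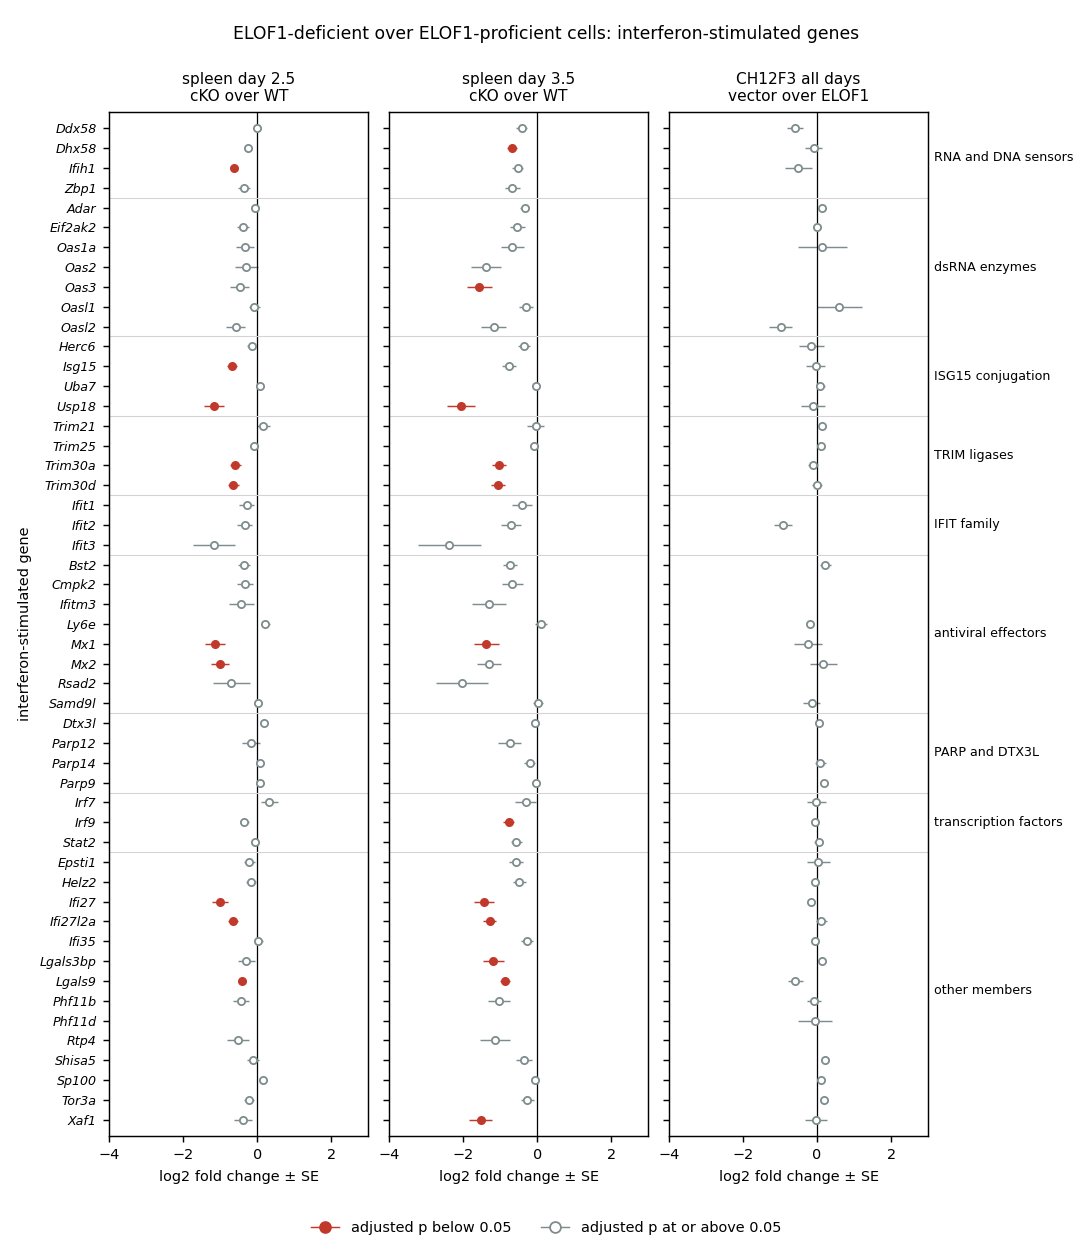
Log2 fold changes ± SE of the tested interferon-stimulated genes by role, cKO over WT in spleen at day 2.5 and day 3.5 and vector over ELOF1 in CH12F3 over all days; filled red points have an adjusted p below 0.05. The points lie left of 0 for 40 of 50 members at spleen day 2.5, 48 of 50 at spleen day 3.5 and 23 of 41 in CH12F3, against 49.3%, 50.7% and 47.9% of all genes.

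Libraries with the same replicate number tended to deviate together in CH12F3, and blocking on that number gave other calls. The labels do not state a pairing, so the block is an assumption. At day 1.5 the block called 5 of 41 members, 1 higher and 4 lower, against 8.6% of all genes. Over all days it called 8, 3 higher and 5 lower, against 13.2% of all genes. Ifit2 was at 4.48, 1.32, 1.44 and 2.55 CPM in vector and 6.43, 4.60, 3.37 and 5.55 CPM in ELOF1 cells at day 1.5, each vector library below the ELOF1 library of its number (-1.04 ± 0.34, adjusted p = 0.17; with the block -1.11, adjusted p = 0.0082). Ddx58 was at 7.97, 4.07, 5.37 and 8.89 CPM in vector and 19.8, 9.09, 9.48 and 11.6 CPM in ELOF1 cells at day 1.5, with no overlap (-0.90 ± 0.30, adjusted p = 0.19; with the block -0.89, adjusted p = 0.0067). Usp18, which fell in cKO spleen cells, was the other member without overlap at day 1.5, at 1.49, 1.32, 1.63 and 1.10 CPM in vector and 0.918, 0.836, 0.470 and 0.991 CPM in ELOF1 cells (0.78 ± 0.43, adjusted p = 0.49). Of all genes, 1.78% lay above and 1.93% below without overlap.

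Lgals9, which fell in cKO spleen cells, was at 14.2, 9.77, 9.49 and 12.3 CPM in vector and 22.6, 19.8, 10.2 and 22.1 CPM in ELOF1 cells at day 1.5. It was not called without the block, and with it the log2 fold change was -0.68 (adjusted p = 0.0080). Ly6e, a membrane protein that blocks coronavirus entry, was at 516, 518, 838 and 757 CPM in vector and 779, 683, 982 and 839.7 CPM in ELOF1 cells at day 1.5 (-0.35 ± 0.09, adjusted p = 0.086; with the block -0.34, adjusted p = 0.0055). Parp9 was the member called higher at day 1.5 with the block (0.33, adjusted p = 0.0089), and over all days Shisa5, Tor3a and Parp9 were called higher and Ifit2, Lgals9, Ddx58, Ly6e and Oasl2 lower.

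Over time in CH12F3, 1 member rose, Lgals3bp, at day 3 over day 1.5 (0.60 ± 0.09, adjusted p = 0.018; 0.218% of all genes called) and at day 7 over day 1.5 (0.67 ± 0.09, adjusted p = 0.0034; 1.32% of all genes called, 0.43% higher and 0.894% lower). It was at 206 and 215.3 CPM in vector and 204 and 181 CPM in ELOF1 cells at day 3, and at 244 and 212.9 CPM in vector and 215.1 and 179 CPM in ELOF1 cells at day 7. At day 1.5 it was at 211.5, 215.8, 133 and 148 CPM in vector and 229.7, 235, 119.6 and 130.4 CPM in ELOF1 cells, with the first series (replicates 1 and 2) above the second. Without the series term neither rise was called, and the day 3 count was 0 without ELOF1 day 1.5 replicate 3 or 4, ELOF1 day 3 replicate 1 or 2, vector day 1.5 replicate 3 or vector day 3 replicate 2. In the test of whether the genotype difference changed with time, 0 members passed at day 3 or day 7 against day 1.5, as did 0% of all genes in edgeR, and by DESeq2. At an unadjusted p below 0.05, 2 members were lower at day 3 (1.22% of all genes in either direction) and 1 at day 7 (1.92%). The difference lay below 0 for 22 of 41 members at day 3 (53.1% of all genes) and 16 of 41 at day 7 (51.7%).

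Most members were higher in spleen B cells than in CH12F3 cells. In spleen WT cells at day 2.5 over CH12F3 ELOF1 cells at day 1.5, 46 of 51 tested members were higher and 2 lower, against 61.8% of all genes called in either direction (32.9% higher). Of these members 10 passed the low count filter in the spleen fit and not in the CH12F3 fit, so their direction was fixed by the filter. Among the 40 tested in both systems, a count added after the data had been seen, 36 were higher and 2 lower, against 32.9% of 12258 such genes higher and 26.3% lower (59.2% in either direction), with a median of 2.10, against 0.09 for those genes. Over the 51 members the median log2 fold change was 2.50, against 0.06 for all genes, and with fly scaling it was 1.57, against a shift of -0.88 in the median of all genes. Ifih1 averaged 83.6 CPM in spleen and 1.18 CPM in CH12F3 cells (6.26 ± 0.26). Epsti1 (5.36 ± 0.29) and Ifi27l2a (3.59 ± 0.20) were also higher in spleen. Lgals3bp (-1.55 ± 0.25) and Ly6e (-0.34 ± 0.12) were lower in spleen, and Bst2 (-0.13), Phf11b (0.08) and Phf11d (-0.38) were not called. Cell, stimulus and day differ together between these groups and cannot be told apart.

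Some members had hardly any counts in CH12F3. Cmpk2 had 718 counts over the 5 spleen WT day 2.5 libraries and 0 over the 4 CH12F3 ELOF1 day 1.5 libraries, and was at least 225.1-fold higher in spleen at a floor of 3 counts over the group. By the same bound Parp12 was at least 54.5-fold and Rsad2 at least 35.1-fold higher. Zbp1 had 2934 counts in spleen and 1 in CH12F3, a ratio of 2759 with a 95% counting interval of 495 to 1.09e+05. Per kilobase of gene model, the members with the highest levels in spleen WT day 2.5 were Shisa5, a membrane protein also called scotin (316 ± 75.4 CPM per kb, SD, n = 5), Ifi27l2a (181 ± 50.0), Ly6e (174 ± 50.8) and Isg15 (64.1 ± 11.7). In CH12F3 ELOF1 day 1.5 they were Ly6e (204 ± 30.5, n = 4), Lgals3bp (59.2 ± 20.9), Bst2 (54.4 ± 16.7) and Shisa5 (36.7 ± 5.32). Ifi27l2a and Ly6e in spleen did not differ beyond their spread, nor did Lgals3bp and Bst2 in CH12F3. The median member was at 13.1 CPM per kb in spleen and 2.62 in CH12F3, while the median gene was at 5.71 and 5.73.

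**Figure D4:**
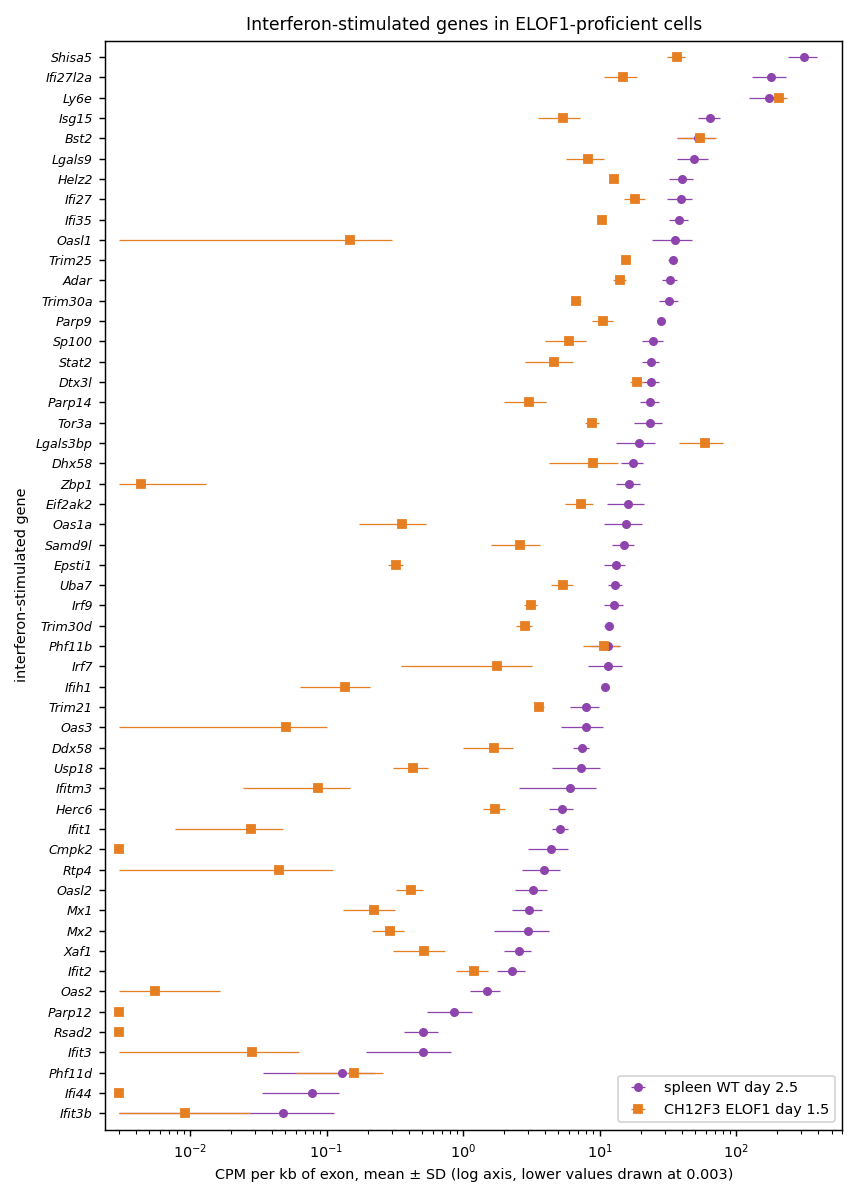
Mean CPM per kilobase ± SD of each interferon-stimulated gene in spleen WT cells at day 2.5 (n = 5) and CH12F3 ELOF1 cells at day 1.5 (n = 4), on a log axis with values below 0.003 drawn there. In spleen 6 members are under 1 CPM per kb, against 22 in CH12F3.

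The genotype difference itself was compared between the systems in a joint fit of 32 libraries, a comparison chosen after the data had been seen. Of 51 members, 5 had a difference that was lower in spleen than in CH12F3 and 0 a higher one, against 1.4% of all genes in either direction (0.735% lower). They were Ifi27l2a (-1.09 ± 0.20, adjusted p = 0.0029), Ifi27 (-1.05 ± 0.22, adjusted p = 0.0094), Trim30d (-0.85 ± 0.18, adjusted p = 0.013), Bst2 (-0.76 ± 0.20, adjusted p = 0.044) and Irf9 (-0.50 ± 0.13, adjusted p = 0.049). The median member was at -0.45 and the median gene at -0.00. The count was 2 without ELOF1 day 7 replicate 1, 8 without cKO day 2.5 replicate 5, and 3 without any 1 of ELOF1 day 3 replicate 2, ELOF1 day 7 replicate 2, vector day 3 replicate 2, cKO day 2.5 replicates 1, 2 or 3, cKO day 3.5 replicates 2 or 3, WT day 2.5 replicate 1 or WT day 3.5 replicates 1 or 3.

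Among members with a promoter in the table, the core of the response element was found in 11 of 16 that fell over both days in spleen (68.8%) and 7 of 21 that were tested and did not pass (33.3%), while TTCNNNGAA was found in 2 of 16 (12.5%) and 6 of 21 (28.6%). The 11 include Ifit3, whose direction was fixed by the low count filter. They also include Trim30a and Trim30d, near-identical copies that may not be separate observations. Expression was used to form these classes, so they are given as a description and no contrast between them was tested.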

How the data were processed

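The 32 libraries, 16 of each system, were strand-specific and made from ribosomal-RNA-depleted RNA with fly S2 cell RNA added. Counts per gene were deposited by the authors as raw counts of mouse and fly genes in 1 table per system. The submitters' processing notes name Bowtie2 and featureCounts, with the mm10 (mouse) and dm6 (fly) builds and no versions. For strand use, multi-mapping and the gene release, the setting is not given in the sources used here. The 884 of 43345 mouse genes with no symbol were kept. Depth limits the precision of low members.

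Mouse counts were tested with edgeR 4.0.16 (limma 3.58.1, R 4.3.3) by its quasi-likelihood test, with TMM scaling, filterByExpr at a minimum count of 10, 1 term per group and 1 for the library series, 16 libraries per fit, and Benjamini-Hochberg adjustment over all tested genes at 0.05. Tables and figures used Python 3.11.15, pandas 2.3.3, NumPy 2.4.6 and matplotlib 3.10.9. CPM per kb divides by gene model length. Tests were checked on simulated data. Members chosen for values by library were those called in a genotype comparison (up to 8 by smallest p) or in a difference. The 4 highest per kb and up to 6 per time comparison were chosen too. Not all of these values are printed, and some members appear only as a range, a mean or a fold change. Some others were named after their values were seen. Members and lists were chosen with earlier results of these data known. Alternatives were DESeq2 1.42.0, RLE and fly scaling, no filter, no series term, either series alone, only the compared groups, a replicate block and leaving out each library.

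Replicate numbers come from the labels. In CH12F3 the deviations of same-numbered libraries correlated at 0.223 to 0.308 at day 1.5 (4 pairs), 0.564 at day 3 and 0.403 at day 7. Those of other numbers correlated at -0.637 to 0.277 at day 1.5, -0.564 at day 3 and -0.403 at day 7. With 2 libraries per group the values at days 3 and 7 are mirror images, so each day gives only a sign. At day 1.5 each group has 2 libraries per series. Other numbers of the same series correlated at -0.637 to -0.483 there, so the 4 pairs are not separate observations. The numbers were read as a possible pairing of these libraries, but the labels do not state a pairing. The main fits and the joint fit do not use it, and the replicate block was run as an alternative. In spleen the correlations of same-numbered libraries ranged over -0.294 to 0.698 at day 2.5 and -0.304 to 0.0824 at day 3.5, so the numbers were not taken to pair them. Of the members, 12 overlap another gene, 9 of them on the other strand. A withheld item is not reported here.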

Additional observations from a re-analysis of the deposited data

Results flagged for a closer look

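Among 62 groups of 4 or 5 values, 2 had a library far from the rest, and chance gives about 1 in 20. Shisa5 was at 59.35 CPM in CH12F3 ELOF1 day 1.5 replicate 2, with the next library at 80.33 and the highest at 84.23 CPM. Shisa5 was at 92.01 CPM in CH12F3 vector day 1.5 replicate 4, with the next at 81.44 and the lowest at 80.79 CPM.

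For 5 members the genotype difference was tested to differ between the systems, as spleen (cKO over WT) minus CH12F3 (vector over ELOF1). The log2 difference was -1.09 for Ifi27l2a, -1.05 for Ifi27, -0.85 for Trim30d, -0.76 for Bst2 and -0.50 for Irf9. Spleen and CH12F3 also differ in stimulus, days and the kind of ELOF1 loss, which cannot be told apart here.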

How the results depend on the processing

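Of 473 member values under alternatives other than leaving out a library, 414 kept their direction and side of the threshold, 39 lost and 19 gained a call and 1 reversed (Irf7, CH12F3 day 7 over day 1.5, -0.14 without the series term). Of 806 with a library left out, 715 kept both. Counts of called members that moved by over 1.5 times follow, and the cause was not tested. At CH12F3 day 1.5 the count was 1 with DESeq2, 4 without a filter and 5 with the replicate block. Over all CH12F3 days it was 2 with DESeq2, 1 with fly scaling, 3 without a filter and 8 with the block. At CH12F3 day 3 over day 1.5 it was 0 with fly scaling or no series term and 3 without a filter, and at day 7 over day 1.5 it was 2 with DESeq2, 0 with fly scaling or no series term and 4 without a filter. At spleen day 2.5 it was 1 with fly scaling, 4 with no series term and 0 in the first series alone. At spleen day 3.5 it was 21 with DESeq2, 29 without a filter, 31 in the second series alone and 29 with only the compared groups. The spleen genotype difference between days had 2 without a filter. Spleen day 3.5 over day 2.5 had 3 with fly scaling, 14 without a filter and 19 in the second series alone. The spleen minus CH12F3 difference had 10 with DESeq2 or no filter, 1 with fly scaling, 3 with no series term, 15 with the block and 9 in the second series alone.

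With 1 library left out, counts ranged over 0 to 1 at CH12F3 day 1.5, 0 to 0 at days 3 and 7 and for both differences, 0 to 2 over all CH12F3 days, 0 to 1 at CH12F3 day 3 over 1.5, 1 to 1 at day 7 over 1.5, 4 to 13 at spleen day 2.5, 2 to 14 at spleen day 3.5, 16 to 31 over both spleen days, 0 to 0 for the spleen difference between days, 5 to 9 for spleen time, 47 to 48 between systems and 2 to 8 for the spleen minus CH12F3 difference. Spleen replicate numbers were not taken to pair libraries, although replicates 4 and 5 at day 2.5 correlated at 0.695 and 0.698 with their own number. These are the only first-series libraries of each genotype. Across numbers they correlated at -0.824, near mirror images, so the 2 values are not separate observations. With the replicate block the spleen counts were 13 at day 2.5, 28 at day 3.5 and 36 over both days, 1 of these 36 higher and 35 lower. Where 2 libraries form a group, leaving 1 out assumes that the other varies like the remaining groups.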
